A study of Mus musculus with 45 samples.

Results

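This set of 10 genes of glucose uptake and glycolysis was measured in the epithelium that lines the mouse colon. They were found by gene symbol among 24918 entries of the RNA-seq count table, so that 10 entries of 24918 are described. Slc2a1, Slc2a4 and Slc2a5 encode sugar transporters. Hk2, Pfkm, Pfkl and Pfkfb3 act at the steps that commit glucose to glycolysis, and Pdp1, Pdha1 and Ldha act on the fate of pyruvate. To these were added the 17 CpGs of Pfkfb3 among the 233 distinct CpGs measured by sequencing of bisulfite PCR amplicons (BSP-seq), in which the share of reads that keep a cytosine gives the methylation level. The genes were chosen by their place in glucose metabolism with their RNA differences between these groups already known, so all 3 RNA comparisons are counted as used in the choice. Of them, Slc2a4, Pfkm and Pdp1 were named by the study as lower in obese mice, from these same libraries. Their expression values are therefore a description, with no test of their direction.

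The mice were male C57BL/6 mice (C57BL/6J in the methods of the study) whose diets began at 6 weeks of age and lasted 20 weeks. Control mice (LF) ate a 10% fat diet throughout, obese mice (HF) ate a 60% fat diet throughout, and formerly obese mice (HFLF) ate the 60% fat diet for 15 weeks and then the 10% fat diet for 5 weeks. Lard was the fat in both diets, and no genetic change is named for any group. There were 5 mice per group in RNA-seq and again in BSP-seq, and from whole-genome bisulfite sequencing (WGBS) a list of differentially methylated regions (DMRs) of obese against control mice was used. Each RNA-seq library had 15230391 to 22762095 reads counted in genes, and 4 of 5 formerly obese libraries were deeper than all others, with 16114562 to 22762095 in that group against 15230391 to 16749096 in the other groups. All 15 of the colonic epithelium markers checked had counts in every library, with a summed level of 21998 to 31175 CPM (counts per 1000000 counted reads). Markers of smooth muscle, skeletal muscle, adipocytes, fibroblasts, immune cells and endothelium summed to at most 48.9 CPM in any library and list. Whether fewer cells of a type or less RNA per cell lies behind a level in such bulk samples cannot be told apart.

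Glucose enters cells through facilitative transporters of the SLC2 (GLUT) family or, in gut epithelium, also with sodium through SLC5 transporters. Hexokinase traps it as glucose 6-phosphate, phosphofructokinase commits it to glycolysis, and the bifunctional PFKFB enzymes set the level of fructose 2,6-bisphosphate, the strongest activator of phosphofructokinase. Pyruvate is then reduced to lactate by lactate dehydrogenase or oxidised in mitochondria by the pyruvate dehydrogenase complex, which kinases switch off and phosphatases switch on. Colonocytes are known for burning butyrate from the gut lumen, so that glucose is not their only fuel.

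Pfkfb3 is the one of the 10 genes with BSP-seq methylation values per mouse, so its measured DNA is shown first. The gene lies on the minus strand at chr2:11471431-11553929 (GRCm38, the assembly that mm10 denotes). A pair of stretches of it was covered by BSP-seq. Amplicon A held 10 CpGs from position 11474389 to 11474687 at the end of the gene, of which RefSeq places 5 in the 3′ UTR of the last exon, 3 in a coding exon and 2 in an intron. Amplicon B held 7 CpGs from position 11528974 to 11529178, all in an intron. The intronic DNA of both is printed on the plus strand of GRCm38.p6, with the CpG dinucleotides in capitals, because these are the cytosines whose methylation is reported. Amplicon B spans chr2:11528974-11529179 (206 bases, 44.2% G or C), and the intronic part of amplicon A spans chr2:11474544-11474688 (145 bases, 51.0% G or C).
Amplicon B: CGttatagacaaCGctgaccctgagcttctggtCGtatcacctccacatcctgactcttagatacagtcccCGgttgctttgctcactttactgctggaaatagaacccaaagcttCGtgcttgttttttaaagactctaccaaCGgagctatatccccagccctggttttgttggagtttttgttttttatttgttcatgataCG
Amplicon A, intronic part: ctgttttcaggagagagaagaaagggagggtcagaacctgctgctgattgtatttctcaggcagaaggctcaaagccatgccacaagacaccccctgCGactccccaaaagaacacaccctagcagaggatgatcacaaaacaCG
Neither amplicon touches the first annotated start of the gene. A later annotated start has its promoter window at chr2:11502041-11502340, also outside both amplicons, and amplicon B lies before that later start. The 250 bases before the first start, chr2:11553930-11554179, are printed on the gene's own strand as RefSeq gives them. They show how CpG-rich this unmeasured promoter is beside the measured intron. They hold 24 CpGs at 68.4% G or C, and the capitals mark the 1 match to the letters ACGTG or GCGTG, the core that hypoxia-inducible factors bind, which begins 60 bases before the start.
Pfkfb3 upstream: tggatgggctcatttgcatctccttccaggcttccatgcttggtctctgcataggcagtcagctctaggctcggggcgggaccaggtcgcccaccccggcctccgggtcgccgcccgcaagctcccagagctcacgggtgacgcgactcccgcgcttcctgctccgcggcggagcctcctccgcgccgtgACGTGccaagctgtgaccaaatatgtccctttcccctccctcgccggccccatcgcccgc
Among the promoter windows of RefSeq, each with 250 bases before and 50 after a start, 13 windows belonged to 8 of the 10 genes. Slc2a4 and Pdp1 had none. Searched on both strands, ACGTG or GCGTG occurred in 43.8% of all 32851 windows, and CACGTG, which contains ACGTG, in 7.2%. Counting a match on both strands as 1 place, Ldha had 5 places that match either of the first pair in 1 of its windows and 2 in the other, Pfkfb3 had 1 and 3, Slc2a1 and Hk2 had 2 each, Pfkl had 1 and Slc2a5 had none. Pdha1 had 4, and the 4 windows of Pfkm, of which the middle 2 overlap, had 2, 2, 1 and none. These are matches of letters and not binding sites.

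The 10 genes spanned a wide range of levels per length. On the scale of RPKM, which is CPM divided by the kilobases of exon, mean levels over the 15 libraries ran from Ldha at 506 ± 35.7 (SD, n = 15) through Pdha1 at 161 ± 10.8, Pfkl at 73.4 ± 5.42, Slc2a1 at 64.3 ± 4.52 and Hk2 at 29.2 ± 3.65. Pfkm followed at 6.86 ± 1.04 RPKM, Slc2a5 at 3.69 ± 0.55, Pdp1 at 3.27 ± 0.44, Slc2a4 at 0.59 ± 0.33 and Pfkfb3 at 0.58 ± 0.21. Neighbours in this order did not overlap in any library except Pfkl with Slc2a1, Slc2a5 with Pdp1, and Slc2a4 with Pfkfb3. The 3 genes called in any comparison were among the 5 lowest. All 10 genes passed the filter on low counts, with Slc2a4 at 10 to 68 counts per library and Pfkfb3 at 25 to 93.

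A gene was called different between groups when it passed all 3 cutoffs used in the study, a fold change over 1.2, a p-value under 0.01 and a Benjamini-Hochberg adjusted p under 0.25, here with edgeR's quasi-likelihood test. Of the 10 genes, 3 were called between obese and control mice, 1 higher (Pfkfb3) and 2 lower (Pfkm and Pdp1), where 1.58% of all 12961 tested genes were called, 0.718% higher and 0.864% lower. Of the same 10, 2 were called between formerly obese and control mice, both lower (Pfkm and Pdp1), against 3.72% of all tested genes, 1.85% higher and 1.87% lower. Formerly obese and obese mice had no call among the 10, against 2.65%, 1.23% higher and 1.42% lower. Since the genes were proposed from these contrasts, nothing is read from these shares. The median log2 fold change of the 10 genes was -0.06, 0.02 and 0.02 in the 3 comparisons, beside 0.00 in each over all tested genes. At an unadjusted p under 0.05, 4, 3 and 2 of the 10 passed edgeR's test in the 3 comparisons, beside 10.9%, 16.7% and 13.4% of all tested genes. At an adjusted p under 0.05 none of the 10 did, beside 0.123%, 2.18% and 0.193%. Nothing is read from these counts either. The comparisons with control mice share the 5 control libraries.

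**Figure D1:**
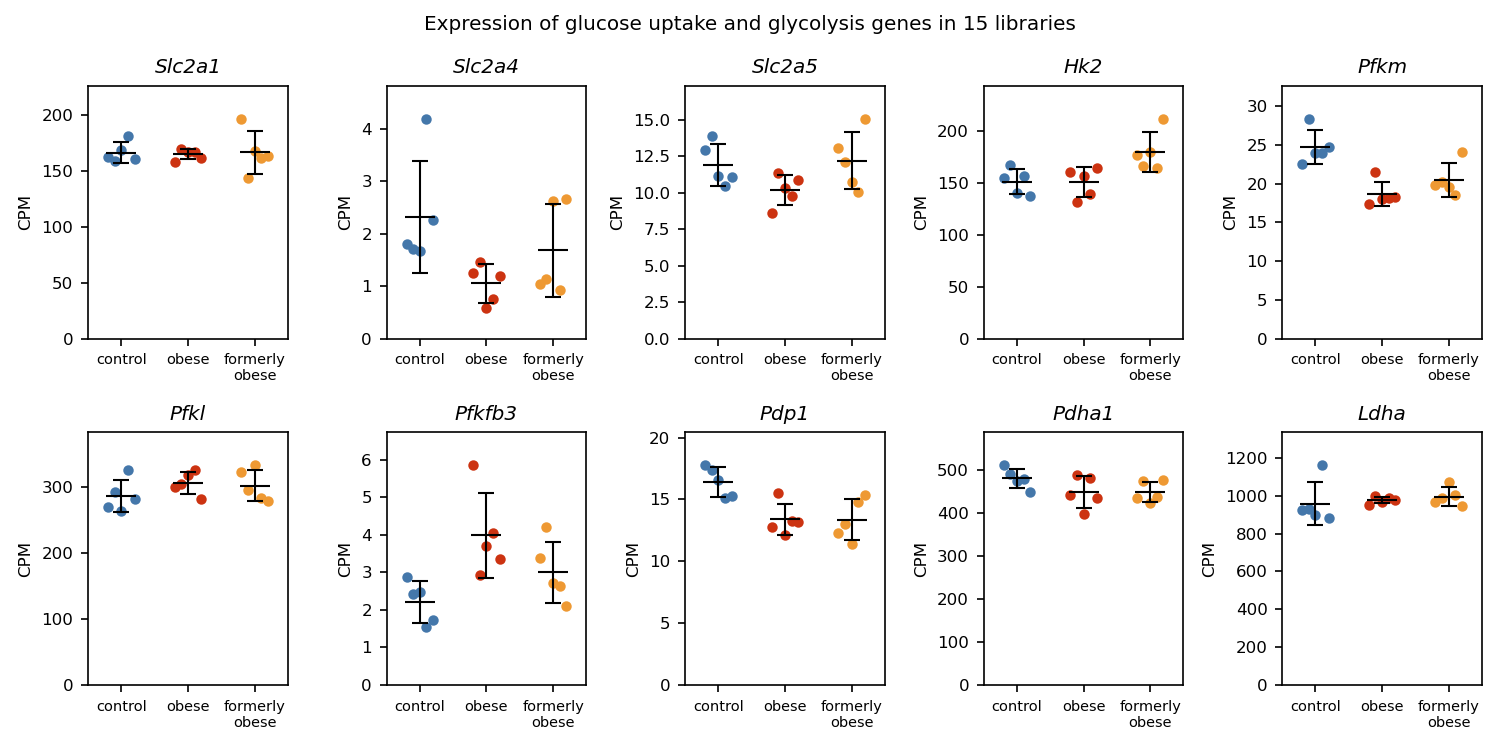
CPM (after TMM scaling) of each gene in every RNA-seq library, by group, with 1 point per mouse, the mean (long mark) and the SD (bars, n = 5), and a separate axis from 0 for each gene. Obese mice do not overlap control mice for Slc2a4, Pfkm and Pfkfb3, and the groups overlap throughout for Slc2a1, Slc2a5, Pfkl, Pdp1, Pdha1 and Ldha. The share of all tested genes without overlap was not computed, so nothing is read from this separation.

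Among the transporters, Slc2a1 (GLUT1), the basal glucose transporter of many cells, overlapped across the groups and was not called. Its CPM was 162, 158, 168, 181 and 160.04 in control mice 1 to 5, 158, 169, 167, 167 and 162 in obese mice, and 196, 143, 167, 161 and 163 in formerly obese mice. The groups overlapped, and formerly obese mice 1 and 2 formed the extremes. The log2 fold change was -0.01 ± 0.06 (standard error of the fit) between obese and control mice, 0.00 ± 0.06 between formerly obese and control mice and 0.02 ± 0.06 between formerly obese and obese mice.

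Slc2a4 (GLUT4), the insulin-responsive transporter known from muscle and fat, was low in every library and lowest in obese mice. Control mice 1 to 5 had 1.81, 1.70, 1.67, 4.19 and 2.25 CPM, obese mice 1.26, 1.47, 0.59, 0.75 and 1.201 CPM, and formerly obese mice 1.05, 1.13, 2.63, 0.93 and 2.66 CPM. Every obese mouse was below every control mouse, control mouse 4 stood above all the others, and formerly obese mice were split, with mice 3 and 5 above all obese mice and the other 3 below all control mice. Between obese and control mice the means stood at 1.05 ± 0.37 and 2.32 ± 1.07 CPM (SD, n = 5), a log2 fold change of -1.14 ± 0.37. Slc2a4 passed the cutoffs on fold change and p but narrowly missed that on the adjusted p, so it was not called. The study, which used DESeq2, reported it as lower in obese mice. Here it did pass all 3 cutoffs without control mouse 3 (-1.24) or obese mouse 2 (-1.29), with DESeq2 (-1.15), and under 4 other settings (-1.14 to -1.13). The value against control mice was -0.45 ± 0.34 in formerly obese mice, and between formerly obese and obese mice it was 0.69 ± 0.37. Without control mouse 4 the values against control mice were -0.82 in obese and -0.13 in formerly obese mice.

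Because Slc2a4 is a gene of muscle and fat, the markers of these tissues stand beside it. The 8 skeletal muscle markers summed to 6.09 to 10.3 CPM in control mice, 6.05 to 6.97 in obese and 5.07 to 9.04 in formerly obese mice. Acta1 made up most of that sum, with means of 8.30, 6.14 and 6.70 CPM, while Mb reached at most 4 counts, Ckm at most 1 count, and Myh1 was at 0 in every library. Of the 8 adipocyte markers, Lep, Plin1 and Retn were at 0 in every library and Adipoq reached at most 2 counts. Their sum ran from 3.14 to 5.66 CPM in control mice, 3.91 to 7.55 in obese and 5.14 to 13.0 in formerly obese mice, nearly all of it Cidec (means of 3.89, 5.57 and 7.44 CPM), with Plin4 next at up to 17 counts. The 9 smooth muscle markers summed to 15.0 to 20.0, 15.3 to 22.8 and 12.8 to 20.1 CPM, led by Smtn (16.6, 16.1 and 16.1 CPM), and Des reached at most 11 counts. Apart from Acta1, Cidec and Smtn, the markers of muscle and fat were at or near 0 in all groups, and Cidec was called higher in formerly obese than in control mice (0.93 on the log2 scale). Their part in the level of Slc2a4 was not tested.

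Slc2a5 (GLUT5), the fructose transporter, had 12.9, 13.9, 11.1, 10.5 and 11.1 CPM in control mice, 8.62, 11.3, 10.3, 9.79 and 10.9 in obese and 13.0, 12.1, 10.7, 10.03 and 15.0 in formerly obese mice. The groups overlapped, although 3 obese mice were below all control mice. Its log2 fold changes were -0.22 ± 0.12, 0.04 ± 0.11 and 0.26 ± 0.12 for obese against control, formerly obese against control and formerly obese against obese mice, none called.

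At the first step of glycolysis, Hk2, the inducible hexokinase that sits on the outer mitochondrial membrane, was highest in formerly obese mice. It had 154, 168, 141, 157 and 138 CPM in control mice, 161, 132, 157, 139 and 165 in obese and 177, 166, 180.3, 165 and 212 in formerly obese mice. All 5 formerly obese mice were above all obese mice, the nearest pair being 164.98 and 164.54 CPM, and 3 of them were above all control mice. The log2 fold change was -0.01 ± 0.08 between obese and control mice, 0.25 ± 0.08 between formerly obese and control mice and 0.26 ± 0.08 between formerly obese and obese mice, just under the fold cutoff of 1.2 (0.263 on the log2 scale), so Hk2 was not called. It was called between formerly obese and control mice without control mouse 2 (0.29) or formerly obese mouse 2 (0.28) or 4 (0.28), and between formerly obese and obese mice without obese mouse 1 (0.28), 3 (0.27) or 5 (0.29) or formerly obese mouse 2 (0.28) or 4 (0.29).

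Some epithelial markers also stood higher in formerly obese mice. Of the 15 colonic epithelium markers, 8 were higher and 7 lower in formerly obese than in control mice, and the median over the list was 0.01 on the log2 scale. Among them 3 were called higher in formerly obese than in control mice (20%, against 3.72% of all tested genes). These 3 were Krt20 (0.55 on the log2 scale), Slc26a3 (0.41) and Car4 (0.34). Between obese and control mice none of the 15 was called, with 10 higher and 5 lower. Krt18 (-0.25) there passed the cutoffs on p and adjusted p and missed only that on fold change. It did the same between formerly obese and obese mice (0.22). Between formerly obese and obese mice Slc26a3 (0.62) and Car4 (0.37) were called higher (13.3% of the list, against 2.65% of all tested genes). The leading 2 of the list were Car1, with means of 4103, 4634 and 7129 CPM in control, obese and formerly obese mice, and Krt19, with 4214, 4346 and 4152. The 10 small intestine markers summed to 497 to 778 CPM in control mice, 572 to 783 in obese and 653 to 944 in formerly obese mice, led by Fabp2 (372, 402 and 563 CPM) and Slc15a1 (112, 112 and 123 CPM). Of their 7 tested members, 2 were called higher in obese than in control mice (28.6%, against 1.58% of all tested genes). In formerly obese against control mice 3 were called higher (42.9%, against 3.72%). These were Fabp6 (1.36) and Alpi (0.65) in obese, and Sis (0.71), Alpi (0.63) and Fabp2 (0.60) in formerly obese mice. The 6 fibroblast markers summed to 2.34 to 10.9, 6.78 to 17.4 and 6.02 to 30.7 CPM in control, obese and formerly obese mice, led by Dcn (2.56, 4.78 and 5.90 CPM), and the 8 immune markers to 20.1 to 34.3, 26.04 to 48.9 and 22.6 to 44.5 CPM, led by Ptprc (11.3, 15.3 and 16.0 CPM), with none of either called. The part of these lists in the levels of Hk2, Pfkm, Pfkfb3 and Pdp1 was not tested. The marker lists were chosen with earlier results of these data known, so nothing is read from their shares.

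Phosphofructokinase is a tetramer of muscle, liver and platelet subunits, encoded by Pfkm, Pfkl and Pfkp. Pfkm, the muscle subunit, was lower in obese mice. Control mice had 22.5, 28.4, 23.9, 23.9 and 24.8 CPM, obese mice 17.4, 21.5, 18.0, 18.1 and 18.3 CPM, and formerly obese mice 19.9, 20.2, 19.5, 18.5 and 24.1 CPM. Every obese mouse was below every control mouse, and 4 of 5 formerly obese mice were too, mouse 5 being the exception. Means were 24.7 ± 2.19, 18.7 ± 1.60 and 20.5 ± 2.16 CPM (SD, n = 5).

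The log2 fold change of Pfkm between obese and control mice was -0.40 ± 0.08, a ratio of mean CPM of 0.755. It was the one call among the 10 genes that was made whichever single library of the 10 compared was left out, at -0.46 to -0.35. Pfkm was chosen with this difference in these libraries known, so this describes the libraries and is no further test. Formerly obese mice differed from control mice by -0.27 ± 0.08, also called, but the call was lost without control mouse 2 (-0.22) and without formerly obese mouse 1 (-0.26), 3 (-0.26) or 4 (-0.24), and once a trend with GC content was removed (-0.25). Formerly obese and obese mice differed by 0.13 ± 0.08, not called.

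Pfkl, the liver subunit, overlapped across the groups. It had 271, 294, 265, 326 and 282 CPM in control mice, 301, 306, 318, 326 and 283 in obese and 323, 296, 333, 283 and 279 in formerly obese mice. The lowest value was in control mouse 3 and the highest in formerly obese mouse 3, with log2 fold changes of 0.09, 0.08 and -0.02, each ± 0.06. Per length, Pfkm was a small part of phosphofructokinase RNA, 5.63% ± 0.54 of the sum of the 3 subunits in control mice, 4.05% ± 0.27 in obese mice and 4.48% ± 0.68 in formerly obese mice (SD, n = 5). Pfkl held 49.6%, 50.7% and 50.2%, and Pfkp 44.7%, 45.3% and 45.3%. The share of Pfkm was 5.04% to 6.30% in control and 3.79% to 4.49% in obese mice, which do not overlap.

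Pfkfb3, the PFKFB isoform with the highest kinase over phosphatase activity, was higher in obese mice. It had 2.87, 2.42, 2.48, 1.54 and 1.74 CPM in control mice, 5.85, 2.93, 3.72, 4.05 and 3.36 CPM in obese and 3.38, 4.20, 2.71, 2.63 and 2.09 CPM in formerly obese mice. Every obese mouse was above every control mouse, obese mouse 1 by the most and obese mouse 2 by the least, and formerly obese mice overlapped both groups. The means were 2.21 ± 0.55, 3.98 ± 1.12 and 3.00 ± 0.81 CPM (SD, n = 5), which rest on 25 to 93 counts per library.

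The log2 fold change of Pfkfb3 was 0.85 ± 0.23 between obese and control mice, a ratio of mean CPM of 1.80, and it was called. The call was lost without control mouse 2 (0.88) or 5 (0.78), or without obese mouse 1 (0.67), 3 (0.87), 4 (0.84) or 5 (0.90), while the direction held. Formerly obese mice differed from control mice by 0.44 ± 0.23 and from obese mice by -0.41 ± 0.22, neither called. Pfkfb3 held only 1.91% ± 0.46 of PFKFB RNA per length in control mice, 3.38% ± 0.73 in obese and 2.44% ± 0.64 in formerly obese mice. Pfkfb2 held 50.1%, 50.3% and 49.5% and Pfkfb4 44.5%, 43.5% and 44.8%, so these isoforms made up most of the family in every group.

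**Figure D2:**
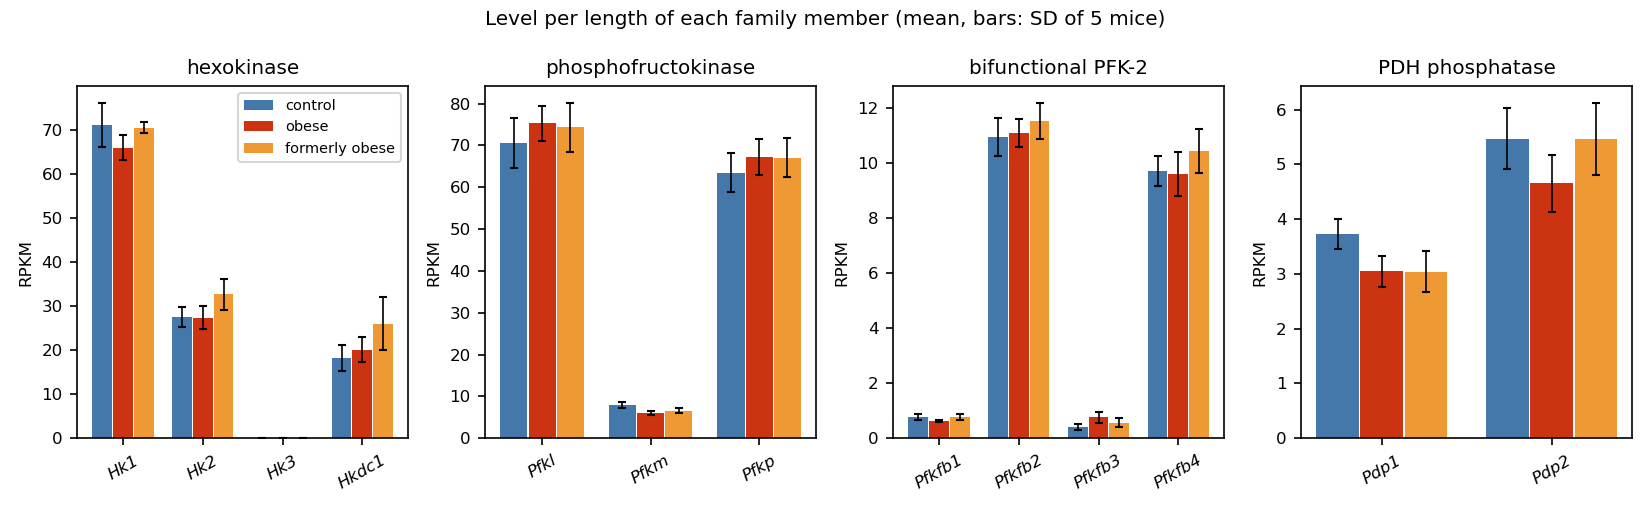
RPKM (CPM per kilobase of exon) of each member of 4 enzyme families, as bars for the mean and lines for the SD of 5 mice per group. Pfkm and Pfkfb3 are minor members of their families, at 5.63% and 1.91% of the family sum in control mice.

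At the entry of pyruvate into mitochondria, Pdp1, the phosphatase that switches pyruvate dehydrogenase on, was lower after either high-fat regimen. Its CPM was 17.8, 17.4, 16.6, 15.1 and 15.2 in control mice, 12.8, 15.5, 12.2, 13.3 and 13.2 in obese and 12.3, 13.04, 11.4, 14.8 and 15.3 in formerly obese mice. In all, 4 of 5 obese and 4 of 5 formerly obese mice were below all control mice, with obese mouse 2 and formerly obese mouse 5 inside the control range. Against control mice the log2 fold change was -0.29 ± 0.09 in obese and -0.30 ± 0.09 in formerly obese mice, both called, and between the latter it was 0.00 ± 0.09.

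Most of the single libraries decided the calls of Pdp1. Between obese and control mice the call was lost without control mouse 1 (-0.26), 2 (-0.27), 3 (-0.29) or 5 (-0.31) and without obese mouse 1 (-0.28), 3 (-0.26), 4 (-0.29) or 5 (-0.29), and also with no filter on low counts (-0.30). Between formerly obese and control mice it was lost without control mouse 1 (-0.27) or 2 (-0.27) or formerly obese mouse 1 (-0.27) or 3 (-0.24). Pdp2 is the other catalytic subunit of this phosphatase. It held 59.4%, 60.4% and 64.2% of the sum of both per length in control, obese and formerly obese mice, and Pdp1 the remainder. The log2 fold change of Pdp2 was -0.23 ± 0.09 in obese and 0.00 ± 0.09 in formerly obese against control mice, neither called.

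Pdha1, the catalytic alpha subunit of pyruvate dehydrogenase, had 511, 491, 475, 479 and 449.96 CPM in control mice, 441, 488, 397, 482 and 435 in obese and 435, 474, 424, 437 and 476 in formerly obese mice. In either high-fat group 3 of 5 mice were below all control mice, yet the groups overlapped. The log2 fold change was -0.10 ± 0.06 in both comparisons with control mice and 0.00 ± 0.06 between formerly obese and obese mice, none called.

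Ldha, which turns pyruvate into lactate, was the most abundant of the 10 genes per length and was not called in any comparison. Its CPM was 924, 929, 898, 1159.95 and 880.1 in control mice, 952, 997, 968, 990.1 and 978 in obese and 965, 989.6, 1074, 1002 and 948 in formerly obese mice. Control mouse 4 stood apart and the groups overlapped. Log2 fold changes were 0.03, 0.06 and 0.03, each ± 0.06, and Ldha held 98.9%, 99.1% and 99.1% of the sum of Ldha and Ldhb per length.

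**Figure D3:**
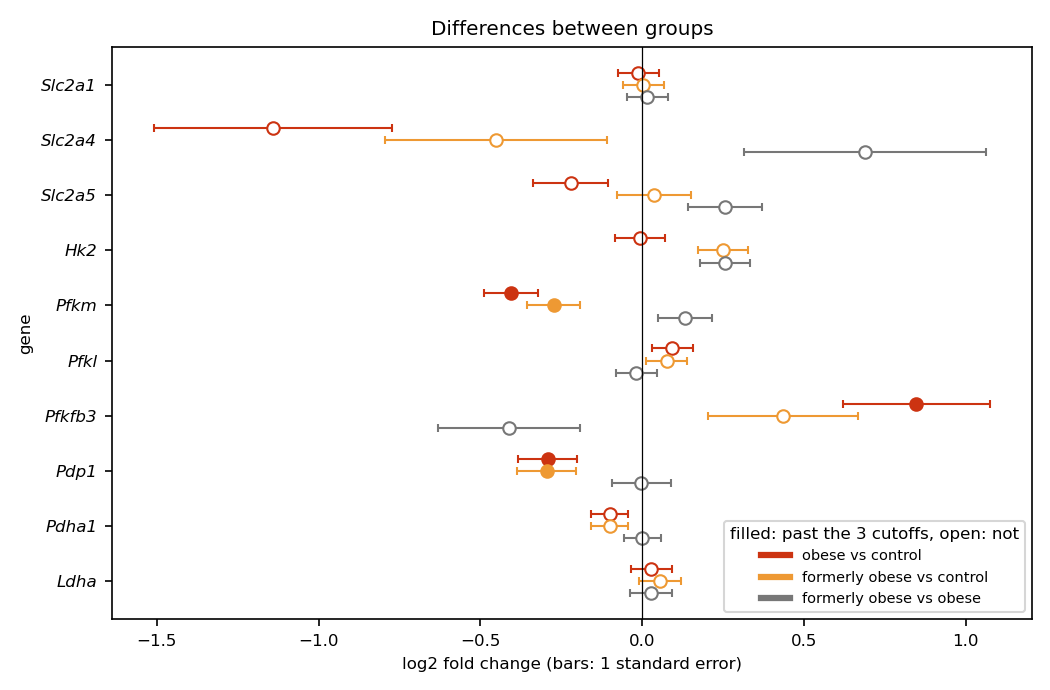
Log2 fold change of each gene in the 3 comparisons, with bars of 1 standard error from the edgeR fit, filled where all 3 cutoffs were passed. Pfkm (-0.40 and -0.27), Pdp1 (-0.29 and -0.30) and Pfkfb3 (0.85) are filled, and Slc2a4 has the widest bars.

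Over the 15 libraries the called genes moved partly together. Pearson's r of log2 CPM was -0.75 between Pfkm and Pfkfb3, 0.77 between Pfkm and Pdp1, 0.66 between Pfkm and Slc2a4 and -0.74 between Slc2a4 and Pfkfb3. It was 0.77 between Pdp1 and Pdha1, 0.68 between Pfkl and Ldha, -0.67 between Pfkl and Pdp1 and 0.65 between Slc2a5 and Pfkm. Between the called genes Pfkfb3 and Pdp1 it was -0.53. These values describe libraries that share their group, diet and depth, so they are not separate from the group differences above.

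Among 11035 tested genes with a mean of at least 50 counts, those most like Pfkm over the 15 libraries were Pck1 (r = 0.92), Acadsb (0.91) and Emp2 (0.89). Those most like Pfkfb3 were Slc30a10 (0.89), 9130221H12Rik (0.86) and Sec24a (0.86), and those most like Pdp1 were Acsm3 (0.92), Rbm20 (0.92) and St3gal6 (0.90). Group means were not removed, so these r values also hold the group differences. They are the highest of many, and a shared control of these genes was not tested.

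The rest of glucose metabolism was followed in 143 other genes in 10 lists, of which 120 were tested. Between obese and control mice 2 of 120 were called (1.67%, against 1.58% of all tested genes), 1 higher and 1 lower. Between formerly obese and control mice 4 of 120 were called, all higher (3.33%, against 3.72%), and between formerly obese and obese mice 2 of 120, both higher (1.67%, against 2.65%). Median log2 fold changes over the 120 genes were -0.01, 0.00 and 0.01, beside 0.00 over all tested genes in each comparison. These lists were chosen with earlier results of these data known, so nothing is read from the shares. Genes given with an adjusted p below were named because they were called, so these values are a description.

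Pck1, the cytosolic enzyme of gluconeogenesis and glyceroneogenesis that forms phosphoenolpyruvate, was the one member of the 11 tested bifunctional and gluconeogenic genes that was called. It had 333, 421, 276, 292 and 345 CPM in control mice, 186, 278, 177, 228 and 213 in obese and 269, 257, 278, 199.9 and 316 in formerly obese mice. Only obese mouse 2 reached the control range, by less than 2 CPM above control mouse 3. Pck1 fell by 0.62 ± 0.13 on the log2 scale in obese mice (edgeR adjusted p = 0.0786), and formerly obese mice differed from control mice by -0.34 ± 0.13, not called, although they were called without control mouse 3 (-0.40) or formerly obese mouse 5 (-0.41). Between formerly obese and obese mice the value was 0.29 ± 0.13, called without formerly obese mouse 4 (0.37).

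Hkdc1, a hexokinase domain protein of gut epithelium, was the one call among 17 tested glycolytic enzymes. It had 66.3, 47.6, 71.6, 72.9 and 58.7 CPM in control mice, 64.8, 58.6, 84.9, 70.9 and 70.5 in obese and 124, 71.9, 88.6, 95.1 and 74.1 in formerly obese mice. Formerly obese mouse 1 was far above the others, and only formerly obese mouse 2 lay inside the control range. Hkdc1 rose by 0.51 ± 0.14 in formerly obese against control mice (edgeR adjusted p = 0.0664), and against obese mice the value was 0.37 ± 0.14, called without obese mouse 3 (0.45) or formerly obese mouse 2 (0.45). As a share of hexokinase RNA per length, Hkdc1 stood at 15.6% ± 2.57, 17.7% ± 2.13 and 20.1% ± 3.93 in control, obese and formerly obese mice, Hk2 at 23.5% ± 1.02, 24.1% ± 2.00 and 25.3% ± 2.48, and Hk1 at 60.9%, 58.2% and 54.7%.

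Hypoxia-inducible targets outside glycolysis held the other calls. Of 14 tested genes, 1, 3 and 2 were called in the 3 comparisons (7.14%, 21.4% and 14.3%), beside 1.58%, 3.72% and 2.65% of all tested genes. This list too was chosen with earlier results of these data known, so nothing is read from these shares. P4ha1, a subunit of collagen prolyl hydroxylase, had 15.2, 14.3, 16.12, 11.7 and 13.9 CPM in control mice, 16.9, 16.14, 16.8, 19.1 and 20.0 in obese and 20.6, 21.8, 17.8, 21.0 and 15.9 in formerly obese mice. Obese mice just cleared the control range. P4ha1 rose by 0.32 ± 0.10 in obese (adjusted p = 0.234) and 0.45 ± 0.10 in formerly obese mice (adjusted p = 0.0303, edgeR). The first of these calls was lost without control mouse 1 (0.34), 2 (0.32), 4 (0.26) or 5 (0.32) and without obese mouse 1 (0.34), 3 (0.34), 4 (0.29) or 5 (0.28).

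Higd1a, a small mitochondrial protein, rose in formerly obese mice by 0.48 ± 0.14 against control mice (edgeR adjusted p = 0.0783) and 0.45 ± 0.14 against obese mice (adjusted p = 0.145). The second call was lost without obese mouse 1 (0.43), 2 (0.40) or 5 (0.42) or formerly obese mouse 1 (0.40), 3 (0.42) or 5 (0.39). Car12, a membrane carbonic anhydrase, rose by 0.43 ± 0.14 in formerly obese against control mice (adjusted p = 0.114), a call lost without control mouse 1 (0.42), 2 (0.35) or 3 (0.41) or formerly obese mouse 1 (0.39) or 3 (0.32). Ndrg1 rose by 0.35 ± 0.10 in formerly obese against obese mice (adjusted p = 0.132), with no overlap, and lost the call without obese mouse 1 (0.32) or formerly obese mouse 1 (0.23) or 5 (0.35).

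The 14 hypoxia targets had median log2 fold changes of 0.03, 0.14 and 0.09 in the 3 comparisons. None of the 16 tested glucose-sensing and hypoxia regulators was called in any of them, with medians of -0.02, -0.01 and 0.01, and 0, 4 and 2 of them passed edgeR's test at an unadjusted p under 0.05, beside 10.9%, 16.7% and 13.4% of all tested genes. Oxygen was not measured here.

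No gene was called in any comparison among 8 tested sugar transporters, 12 genes of pyruvate entry and pyruvate dehydrogenase, 7 lactate enzymes and transporters, 12 genes of fructose and galactose entry, 10 of the pentose phosphate pathway and 13 of glycogen metabolism. By edgeR's test at an unadjusted p under 0.05, these 6 lists held 1 gene each between obese and control mice and 0 to 2 each in the other comparisons, beside the same shares of all tested genes. The most abundant gene per length is given for scale for 6 of the lists with no call. Between obese and control mice the log2 fold change was 0.01 ± 0.05 for Slc5a1 (the sodium-glucose cotransporter SGLT1), 0.02 ± 0.05 for Dld and -0.02 ± 0.06 for Bsg (the chaperone of lactate transporters). It was 0.03 ± 0.07 for Taldo1, 0.00 ± 0.06 for Ugp2 and -0.15 ± 0.09 for Txnip, which restrains glucose uptake.

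Txnip stood at -0.23 ± 0.09 between formerly obese and control mice and was called there without formerly obese mouse 1 (-0.29) or 5 (-0.29). For the other 5 of these genes the values between formerly obese and control mice were 0.00 to 0.11. Slc5a1, at 85.0 RPKM, stood above Slc2a1 among the transporters.

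Some pathway genes have near-identical copies elsewhere in the mouse genome, and the counting of the study could have split or dropped their reads. Gapdh at 15.1, Pgk1 at 14.2, Pgam1 at 9.74 and Eno1 at 0.05 RPKM are far below Tpi1 at 382 and Aldoa at 660 RPKM, and their levels are uncertain (these 6 genes were chosen after their values were seen). Ldha has processed copies too, so its level is likewise uncertain.

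**Figure D4:**
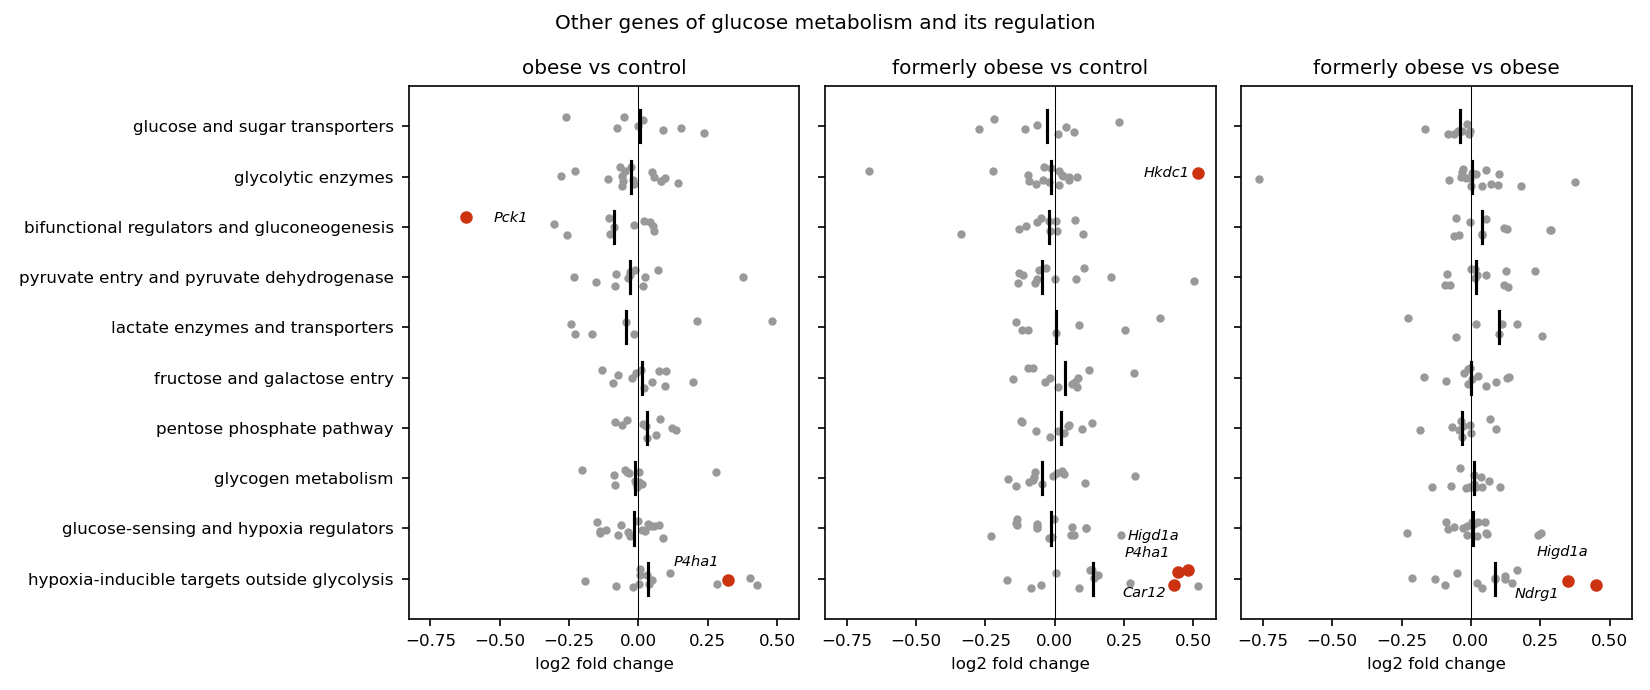
Log2 fold change of each of the 120 tested genes of 10 lists in the 3 comparisons, with 1 point per gene, the median of each list as a black mark and the called genes in red and named. Red points number 2, 4 and 2, and the list medians stay between -0.09 and 0.14.

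No difference in the mean methylation of Pfkfb3 between the groups of 5 mice passed the exact test at either amplicon. Levels at its 17 CpGs ran from 61.9% to 98.3% over all mice, and the sequences printed above carry 9 of these CpGs. No read depth is given with these fractions, so no interval can be set on single values. In amplicon A the mean over 10 CpGs was 89.9%, 88.4%, 89.3%, 88.1% and 89.1% in control mice 1 to 5, 88.2%, 90.4%, 88.3%, 89.0% and 89.1% in obese mice, and 88.8%, 89.6%, 88.0%, 89.0% and 88.2% in formerly obese mice. The groups overlapped, with means of 88.96% ± 0.73, 88.98% ± 0.89 and 88.7% ± 0.63 (SD, n = 5).

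Amplicon B was less methylated, and its mean over 7 CpGs was 79.8%, 78.8%, 79.9%, 78.1% and 78.9% in control mice, 79.1%, 79.3%, 78.6%, 79.4% and 79.9% in obese and 78.4%, 79.5%, 78.5%, 78.1% and 78.4% in formerly obese mice. Here 4 of 5 formerly obese mice were below all obese mice, and mouse 2 was inside their range. The means were 79.1% ± 0.76, 79.3% ± 0.49 and 78.6% ± 0.52 (SD, n = 5).

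Exact permutation tests, 2-sided, over the mice compared the groups at each amplicon, 6 tests in all, in which 5 against 5 mice can give no p below 0.0079. At amplicon A obese and control mice differed by 0.02 ± 0.51 percentage points (± standard error, exact p = 0.96), and formerly obese mice differed by -0.24 ± 0.43 from control (exact p = 0.595) and by -0.26 ± 0.49 from obese mice (exact p = 0.571). At amplicon B the differences were 0.16 ± 0.41 (exact p = 0.69), -0.52 ± 0.41 (exact p = 0.23) and -0.68 ± 0.32 points (exact p = 0.0794). After Benjamini-Hochberg adjustment over the 6 exact tests no p was below 0.476. Between formerly obese and obese mice, all 7 CpGs of amplicon B were lower, with differences of -1.49 to -0.11 points. The exact p of that amplicon was 0.0159 without formerly obese mouse 2 (-0.91 points) and 0.0397 without obese mouse 3 (-0.85 points). Of all leave-one-out settings at both amplicons only these 2 had an exact p under 0.05. Neither p is adjusted, so nothing is read from them. With obese and formerly obese mice paired by number, the difference at amplicon B was -0.68 ± 0.32 points, lower in 4 of 5 pairs (-1.49 to 0.16 points), with a 2-sided exact sign-flip p of 0.188, where 5 pairs can give no p below 0.0625.

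Site by site, none of the 17 CpGs was called by limma at an adjusted p under 0.05 in any of the 3 comparisons, where 0.429% of the 233 CpGs were called between obese and control mice (1 CpG) and 0% in each of the others. At an unadjusted p under 0.05 limma also passed none of the 17, against 24, 22 and 9 of 233, and exact permutation tests per CpG passed 0, 0 and 1 of 17, against 21, 18 and 13 of 233. In both comparisons with formerly obese mice the largest difference was at the last CpG of amplicon A, at position 11474687 and the last capital pair of the printed intronic part, which stood at 72.6%, 72.8% and 70.0% in control, obese and formerly obese mice. Its spread was also the widest, from 65.3% to 79.5% over the 15 mice. Between obese and control mice the 17 differences ran from -0.62 to 0.79 points, and their median size was 0.32 points, beside 0.75 points over all 233 CpGs. The spread was smaller too, with a median SD within groups of 0.83 points at the 17 and 1.41 at the other CpGs. Neighbouring CpGs of an amplicon share their reads and are not separate measurements.

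Levels differed far more between CpGs than between mice. In amplicon A the CpGs at positions 11474436 and 11474687 had means over all mice of 65.5% and 71.8%, while the other 8 lay between 87.3% and 97.5%. Amplicon B ran from 67.9% at position 11529045 to 93.1% at position 11528986, its second capital pair. The RNA of Pfkfb3 was 1.80 times as high in obese as in control mice, and limma called none of the CpGs measured in its body between these groups. The assays were not joined by mouse and BSP-seq did not cover the promoter windows. A relation of methylation to this RNA was not tested.

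**Figure D5:**
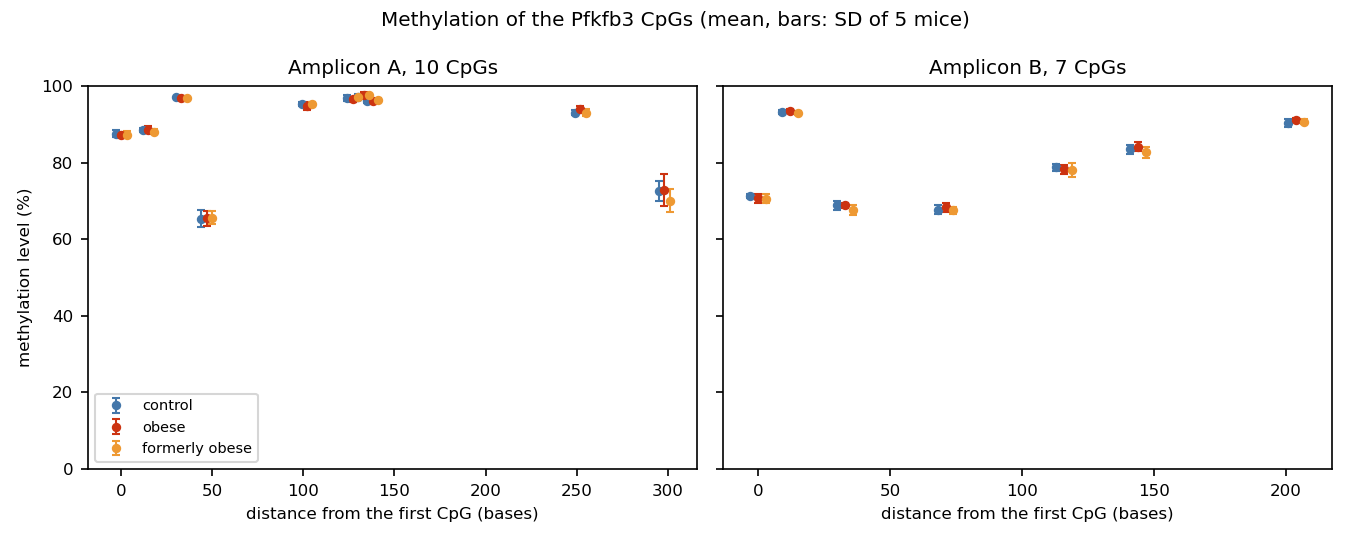
Methylation level (%) of the 17 Pfkfb3 CpGs against the distance in bases from the first CpG of each amplicon, as the mean and SD of 5 mice per group, drawn side by side. The SD bars of the 3 groups overlap at most CpGs, and group means range from 65.3% to 97.7% between CpGs.

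The 8199 DMRs of the WGBS list for obese against control mice, 4123 hypermethylated and 4076 hypomethylated, come with a position and a direction but no value per mouse, so they allow no test. No DMR lay inside any of the 10 genes, where 11.5% of 24051 placed gene entries held one. Within 50 kb of a gene, 7 of the 10 had a DMR, against 41.1% of the placed entries, and 4 of these 7 DMRs were hypermethylated and 3 hypomethylated. Nothing is read from these shares, since no test was made.

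The nearest DMR of Pfkfb3 was hypermethylated, 8 bases long, at chr2:11438426-11438433, 32998 bases past the end of the gene. That of Pfkm was hypomethylated at chr15:98180594-98180615, 48147 bases past its end. The closest of all lay 4816 bases before the start of Slc2a5, hypomethylated, at chr4:150114508-150114528. Ldha had a hypermethylated region 14052 bases before its start, Slc2a4 a hypermethylated one 23090 bases past its end, Hk2 a hypomethylated one 26665 bases before its start and Slc2a1 a hypermethylated one 37300 bases before its start. Pfkl (53655 bases), Pdp1 (169977 bases) and Pdha1 (678511 bases) had none within 50 kb.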

How the data were processed

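RNA-seq, BSP-seq and WGBS were made from colonic epithelium of 15 mice each, with 5 per group, per the labels. Paired reads from stranded mRNA libraries were mapped to mm10 by the authors with TopHat2 2.0.4 and counted per gene with HTSeq. The deposited counts were used as they stand. The strand setting and annotation release are not given in the sources used here. For BSP-seq, the deposited values are the fraction of methylated reads at each CpG (Bismark 0.7.8 and 0.14.0 are in the submitters' processing notes), without read depth. The table had 253 lines, of which 20 repeated another and were dropped. They were treated as fractions and printed as percent. The deposited DMR list was made by the authors with a Rao-Scott test. The deposited DESeq2 tables hold the authors' fold changes and p-values and were not used.

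Counts were filtered with filterByExpr (12961 genes kept), TMM-scaled and fitted over all 15 libraries with edgeR 4.0.16 (R 4.3.3) with group as the only term. CPM used TMM library sizes, and RPKM divided these by the union exon length in RefSeq GRCm38.p6. CpGs were tested with limma 3.58.1 on log2((m + 0.01)/(1 - m + 0.01)). Amplicon means were compared with exact permutation tests. Same-numbered obese and formerly obese BSP-seq libraries deviated together in all 5 pairs (correlations of 0.218 to 0.709 over the 233 CpGs), which the labels do not explain, so that comparison was also made in pairs. The scripts were tested on simulated data. The 10 genes and all lists were chosen with earlier results of these data known. Named pathway genes were all those called in any comparison and, for a list with none, its most abundant gene, of which 1 is not reported here. Named markers were the 2 most abundant of each list and those called. Genes most alike were the 3 with the highest r for each called gene. Replicates of a group were separate libraries. Whether same-numbered RNA-seq and BSP-seq libraries come from 1 mouse is not stated, so the assays were not joined by mouse. Replicate pairs differed by a chi-square per degree of freedom of 5.67 to 20.3, so none was a repeated library. Alternatives were DESeq2 1.42.0, other scalings and filters, the compared groups alone, GC correction, a replicate block, other cutoffs and distances, and leaving out each library.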

Additional observations from a re-analysis of the deposited data

Results flagged for a closer look

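In each group of 5 mice, the highest and lowest values of the 10 genes and of both Pfkfb3 amplicons were compared with the others by Dixon's ratio, in 36 groups of values. Chance alone marks about 1 group in 20. Of these, 4 stood apart. Control mouse 4 had 1159.95 CPM of Ldha, against 880.1 to 929 in the other control mice. The same mouse had 4.19 CPM of Slc2a4, against 1.67 to 2.25 in the other 4. Obese mouse 2 had 21.5 CPM of Pfkm, against 17.4 to 18.3 in the other obese mice. Formerly obese mouse 2 had a mean methylation of 79.5% at amplicon B of Pfkfb3, against 78.1% to 78.5% in the others.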

How the results depend on the processing

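Pfkm between obese and control mice was called under every alternative except a cutoff of 0.05 on the adjusted p alone. The gene was chosen with this difference known, so this too is a description. At that cutoff edgeR called 0 of the 10 genes between obese and control and 0 between formerly obese and control mice, and of the pathway genes 0, 1 and 0 in the 3 comparisons. Removing a GC trend left 1 of the 10 genes called between formerly obese and control mice, with or without the replicate block. Amplicon B differed by -0.53 points between obese and control mice when the median over its CpGs replaced the mean. DMRs near the genes numbered 1 within 10 kb, at 1 of the 10 genes (19.4% of placed entries), and 14 within 100 kb, at 8 of the 10 (58.2%). The cause of these changes was not tested.

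Leaving out 1 library at a time gave 1 to 4, 0 to 3 and 0 to 1 called genes of the 10 in the 3 comparisons, and 1 to 5, 3 to 7 and 0 to 5 pathway genes. It gave differences of -0.33 to 0.27, -0.45 to 0.01 and -0.47 to 0.09 points at amplicon A, and of -0.11 to 0.36, -0.79 to -0.32 and -0.91 to -0.51 points at amplicon B. It called 0 of the 17 CpGs throughout. No value with a call changed direction. The median of all genes moved by at most 0.011 (log2) under other scalings.

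With the replicate block, 3, 2 and 0 of the 10 genes were called. Of the named pathway genes P4ha1 in obese against control mice lost its call (0.32), and Hkdc1 in formerly obese against obese mice gained one (0.36). Same-numbered RNA-seq libraries had correlations of -0.231 to 0.333, and 6 of 15 libraries were most like their own number. In BSP-seq, pairs with a control library had -0.464 to 0.569. The block changed no call at Pfkfb3. At the amplicons, mice paired by number gave exact sign-flip p-values of 0.188 to 0.938. That test can give no p below 0.0625 with 5 pairs, which is above the cutoff used for the exact tests. It could not have passed at either amplicon, so nothing is read from these p-values. Depth limits Slc2a4 and Pfkfb3, which had 10 to 93 counts per library.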
